A study of Mus musculus with 17 samples.

Results

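A set of 8 genes that mark the mature fat cell was followed through 17 mouse mammary tumours: Adipoq, Retn, Lep and Cfd, which encode secreted proteins, Fabp4 and Lipe, which handle fatty acids, Car3, an abundant enzyme of the fat cell, and Pparg, the transcription factor of fat cell formation. They were chosen by name as adipocyte genes, but with earlier results of these data known, so the choice is not independent of the values. Each gene was read from 1 probe set, its brightest on average over the 17 arrays. Of these 8 genes 7 had a probe set paired with their symbol, of 12393 genes in all, and Cfd was not analysed here. All tumours came from FVB mice and were induced by the T58A mutant of Myc under the MMTV promoter, which drives a transgene in breast epithelium, in the low expressing form, as the series states. By histology they comprised 6 EMT tumours (epithelial to mesenchymal transition), 1 Papillary tumour, 1 Microacinar tumour and 9 Squamous tumours, with 1 array each and no sample of tumour-free mammary gland. The labels give no ages, and numbers such as Squamous 4 only tell tumours of one histology apart.

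The mammary epithelium grows as ducts inside a pad of fat, so a piece of mammary tumour can hold fat cells beside tumour cells. PPAR gamma, the product of Pparg, is a nuclear receptor that works as a pair with the retinoid X receptor and, with the C/EBP factors, switches on the genes of the fat cell. Mature fat cells store triglyceride in a droplet, release it by lipolysis and secrete adipokines. In the lactating gland the epithelium makes and stores lipid too, so some lipid genes are shared between the 2 cell types. In these bulk samples fewer fat cells and less RNA of a gene per fat cell cannot be told apart.

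All values are log2 values as deposited. Array medians lay between 7.23 and 7.40 and lower quartiles between 5.24 and 5.41. The arrays of EMT 5, EMT 6 and Squamous 9 carry TM in their titles, and on these 3 the values were spread more widely (SD over probe sets 2.46 to 2.51) than on the other 14, whose titles are numbers only (2.25 to 2.29). The keratin Krt8 was 7.35 to 13.45 in EMT tumours, 12.98 in the Papillary, 12.47 in the Microacinar and 11.56 to 13.18 in Squamous tumours, and the epithelial surface protein Epcam was 5.92 to 12.62, 11.99, 12.30 and 11.19 to 12.05 in the same order. Myc was 9.18 to 12.40 in EMT tumours, 10.20 in the Papillary, 10.28 in the Microacinar and 9.79 to 12.29 in Squamous tumours. The number of tumours limits the precision of every group value.

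Promoter windows of 300 bases, 250 before and 50 from the start on, were taken from RefSeq (GRCm38.p6) for the 6 of 8 genes that could be matched, which gave 9 windows because Pparg has 3 starts and Lipe has 2. They are shown because some of the measured genes varied together across tumours. Nuclear receptor and C/EBP sites were searched because PPAR gamma and the C/EBP factors are known regulators of the fat cell. The TATA box was searched besides. The 5 motifs searched on both strands were the nuclear receptor site AGGTCA, its repeat (2 copies with 1 base N between them), the C/EBP palindrome TTGCGCAA, the separate pattern TTGCNNCAA, which cannot match that palindrome, and the TATA box TATAAA. Capitals mark the matches, the single site lies within the repeat, and the palindrome reads alike on both strands and was counted once.
Adipoq: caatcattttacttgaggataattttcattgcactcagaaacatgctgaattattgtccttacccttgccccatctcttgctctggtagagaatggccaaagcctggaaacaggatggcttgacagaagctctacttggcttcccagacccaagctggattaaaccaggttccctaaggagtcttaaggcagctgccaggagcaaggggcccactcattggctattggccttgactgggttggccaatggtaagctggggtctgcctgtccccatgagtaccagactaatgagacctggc
Lep: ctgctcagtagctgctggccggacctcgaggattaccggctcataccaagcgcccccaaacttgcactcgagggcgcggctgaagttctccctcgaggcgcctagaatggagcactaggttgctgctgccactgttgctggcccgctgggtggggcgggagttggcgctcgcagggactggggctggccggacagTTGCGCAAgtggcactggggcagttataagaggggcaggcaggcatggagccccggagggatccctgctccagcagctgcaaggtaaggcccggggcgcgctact
Pparg: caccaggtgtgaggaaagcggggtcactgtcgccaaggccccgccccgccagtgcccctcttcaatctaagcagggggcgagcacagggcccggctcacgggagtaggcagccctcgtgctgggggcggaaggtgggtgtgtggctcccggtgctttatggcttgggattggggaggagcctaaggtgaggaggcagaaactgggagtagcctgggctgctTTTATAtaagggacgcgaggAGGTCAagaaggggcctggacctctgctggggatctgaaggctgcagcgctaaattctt
The Adipoq window, at chr16:23146286-23146585 on the plus strand, held none of the 5 motifs, which says only that these letters are not in it. The Lep window, at chr6:29059971-29060270 on the plus strand, held the C/EBP palindrome from 55 to 48 bases before the start, as did 0.183% of all 32851 windows. The Pparg window of the second start, at chr6:115362099-115362398 on the plus strand, held the single site AGGTCA from 9 to 4 bases before the start, as did 16.3% of all windows, and a TATA box on the minus strand from 29 to 24 bases before it, as did 13.6%. The first Pparg start also had this site, and the windows of Retn, Cfd and Lipe and the third Pparg start had no match to the 5 motifs. The full repeat was in 0.0396% of all windows and in no window of these genes.

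Adipoq, which encodes adiponectin, a hormone made almost only by fat cells, varied the most together with Car3. Its log2 value was 3.32 at the lowest, 4.49 at the median and 6.39 at the highest in the 6 EMT tumours, 8.64 in the Papillary, 11.87 in the Microacinar, and 4.14, 6.60 and 10.88 in the 9 Squamous tumours. The Microacinar tumour was highest, Squamous 4 (10.88) and Squamous 8 (9.34) followed, and the other 7 Squamous tumours, all at or below the 6.97 of Squamous 6, overlapped with EMT 1. All 6 EMT tumours lay below the Squamous median, and 2 of them lay below the lowest Squamous tumour. The Papillary tumour lay within the Squamous range.

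Retn, which encodes resistin, a hormone of fat cells in the mouse, followed the same tumours over a narrower range. Its log2 value was 6.07, 6.20 and 6.48 (lowest, median, highest) in EMT tumours, 7.82 in the Papillary, 8.75 in the Microacinar and 6.06, 6.54 and 8.58 in Squamous tumours. The Microacinar tumour and Squamous 4 were highest, the Papillary tumour and Squamous 8 (7.51) came next, and the 6 EMT tumours lay inside the span of the other Squamous tumours. The EMT tumours varied little, with an SD of 0.14 (n = 6), against 0.78 (n = 9) in Squamous tumours.

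Lep, which encodes leptin, the hormone by which fat stores signal to the brain, was near the bottom of every array. Its log2 value was 3.58, 4.44 and 4.55 in EMT tumours, 4.62 in the Papillary, 5.04 in the Microacinar and 3.80, 4.45 and 4.76 in Squamous tumours. It was below the lower quartile of its array in 17 of 17 tumours, so its order across tumours is at the low end of what these arrays report. EMT 5 and EMT 6 carried one identical value, 3.58, and the lowest 3 values were those of the 3 TM arrays.

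Fabp4 encodes the fatty acid binding protein of fat cells, and is also made by capillary endothelium and macrophages. Its log2 value was 10.08, 10.74 and 11.67 in EMT tumours, 11.12 in the Papillary, 13.19 in the Microacinar and 9.31, 11.35 and 13.80 in Squamous tumours. It was the one gene of the 7 whose highest tumour was not the Microacinar: Squamous 9, at 13.80, was above it, and Squamous 4 had 12.95. Squamous 9 had an Adipoq value of 6.57 and the highest mean of the 8 endothelial genes of all 17 tumours (8.42, with EMT tumours at 6.89 to 8.11, the Papillary at 7.10, the Microacinar at 7.49 and all Squamous tumours at 6.38 to 8.42). The part of endothelial cells in the Fabp4 value was not tested.

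Fabp4 was read by 4 probe sets, which were not alike on the TM arrays. Squamous 9 was the highest tumour by 3 of them. By the fourth, Squamous 4 was highest at 12.31 and Squamous 9 had 11.62. All 4 gave a lower mean in EMT than in Squamous tumours.

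Lipe, which encodes hormone-sensitive lipase, an enzyme of lipolysis, had a log2 value of 6.48, 7.07 and 7.50 in EMT tumours, 7.80 in the Papillary, 9.15 in the Microacinar and 6.95, 7.69 and 8.32 in Squamous tumours. The Microacinar tumour stood above all others, with Squamous 4 next. All 6 EMT tumours lay below the Squamous median, and 3 of them below the lowest Squamous tumour, Squamous 5. The ranges of EMT and Squamous tumours overlapped between 6.95 and 7.50.

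Pparg had a log2 value of 4.85, 5.03 and 6.02 in EMT tumours, 5.42 in the Papillary, 7.89 in the Microacinar and 4.87, 5.49 and 6.59 in Squamous tumours. Squamous 4, Squamous 8 and Squamous 9 had 6.59, 6.51 and 6.50, above the other Squamous tumours. Pparg was a low value on many arrays, below the lower quartile of its array in 8 of 17 tumours. The Papillary tumour, with high Adipoq, was below the Squamous median for Pparg. EMT 5, at 6.02, was above the other 5 EMT tumours and had the lowest Adipoq value of all tumours. It also had the highest mean of 8 macrophage genes (12.00, with all EMT tumours at 9.14 to 12.00, the Papillary at 9.14, the Microacinar at 9.17 and Squamous tumours at 8.28 to 10.70), and macrophages are known to use Pparg. EMT 6 had the next highest macrophage mean, 11.42, and a Pparg value of 4.91. Over the 17 tumours the macrophage mean and Pparg had Pearson's r = 0.14. The part of macrophages in the Pparg value was not tested. EMT 5 is a TM array, and the fat-cell gene Plin4 carried the same value, 6.02, on the arrays of EMT 5 and EMT 6. On the TM array of Squamous 9 Pparg and the white fat gene Sncg also carried one identical value, 6.50.

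**Figure D1:**
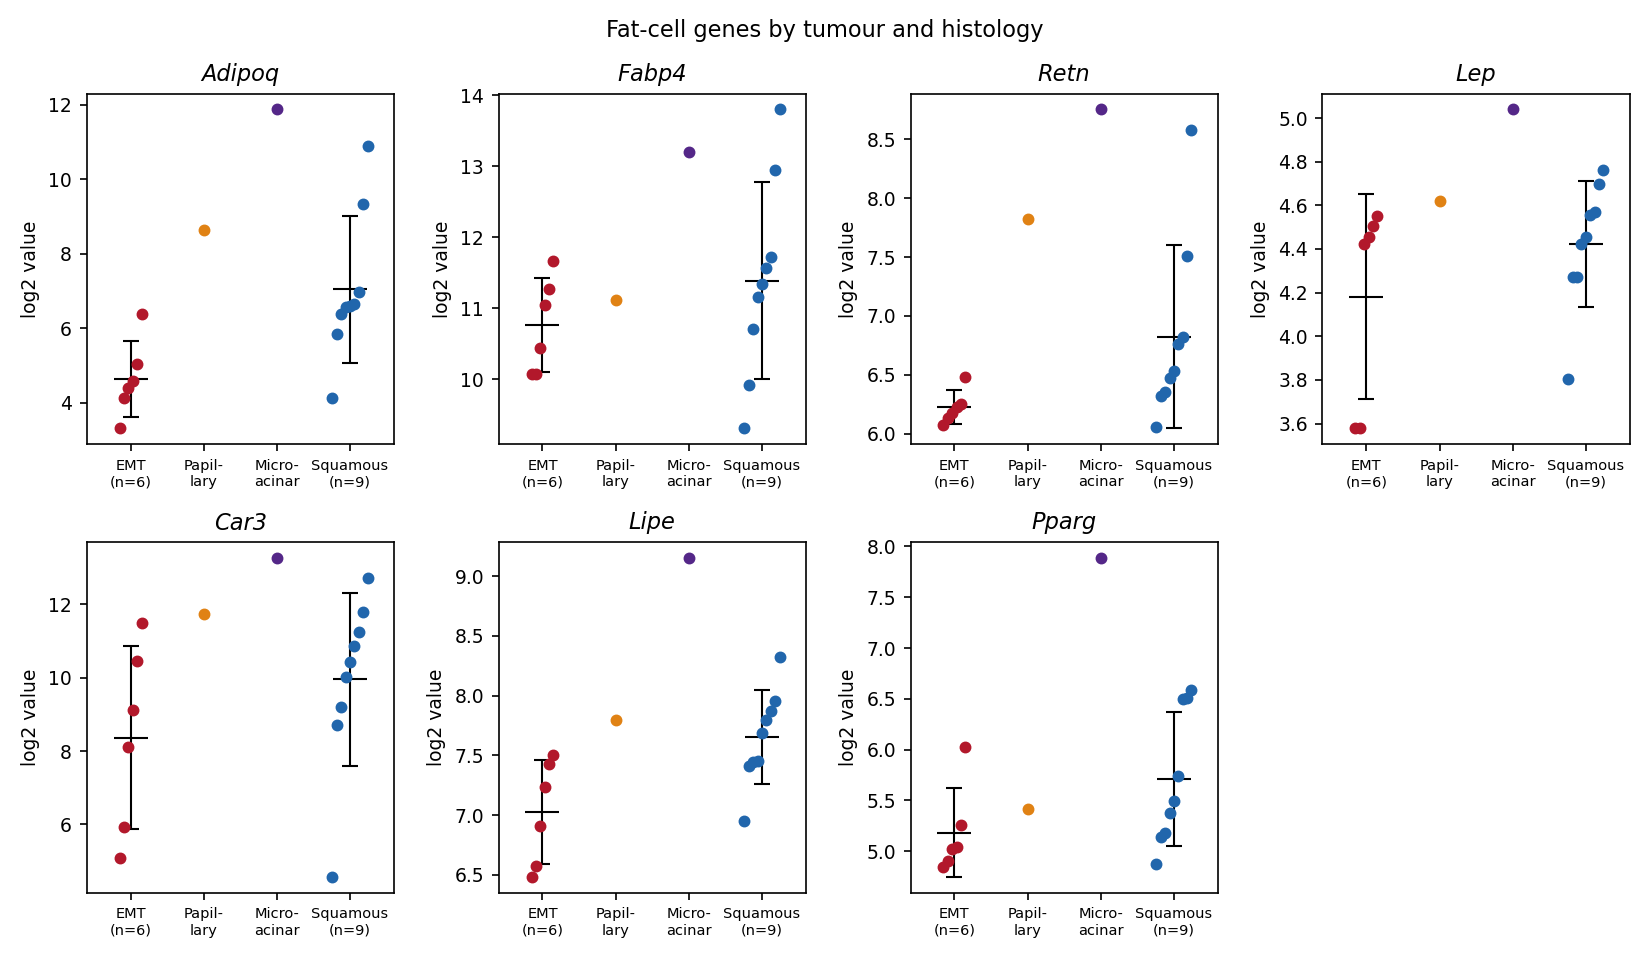
Log2 value (vertical axis) of each of the 7 measured fat-cell genes in each tumour, one point per tumour, by histology; black bars are the mean and SD of the 6 EMT and the 9 Squamous tumours. The Microacinar tumour was the highest point for 6 genes, and Squamous 9 for Fabp4.

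Car3, which encodes carbonic anhydrase 3, an enzyme abundant in fat cells and in slow skeletal muscle, had the widest span. Its log2 value was 5.09, 8.62 and 11.48 in EMT tumours, 11.73 in the Papillary, 13.26 in the Microacinar and 4.57, 10.41 and 12.71 in Squamous tumours. The Microacinar tumour, Squamous 4, Squamous 8 (11.78) and the Papillary tumour were again the highest 4. EMT 4 (11.48) and EMT 6 (10.46) had high Car3 beside low Adipoq values of 5.03 and 4.39. Squamous 2, with the lowest Car3 value, also had the lowest Adipoq value of the Squamous tumours.

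Skeletal muscle genes moved with Car3 in part of the tumours. The mean of 9 muscle genes was 11.16 in EMT 4, the highest of all 17, and 8.65 in EMT 6, with 5.17 to 7.73 in the other EMT tumours, 10.07 in the Papillary, 10.66 in the Microacinar and 5.32 to 9.53 in Squamous tumours. In Squamous 4 and Squamous 8 the muscle mean was low, 5.51 and 5.44, beside Car3 values of 12.71 and 11.78. The muscle actin Acta1 was 13.72 in EMT 4, 11.94 in EMT 6, 6.90 in Squamous 4 and 6.43 in Squamous 8. The 9 genes were chosen as skeletal muscle genes and not as markers of slow fibres, so their mean does not measure slow muscle. The part of muscle in the Car3 values was not tested.

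The tumours were then ranked by the mean of the 7 genes, each centred on its own mean over the 17 tumours. The mean was 2.47 in the Microacinar tumour, 1.84 in Squamous 4, 1.06 in Squamous 8, 0.76 in the Papillary tumour and 0.56 in Squamous 9, and the lowest values were −1.36 in EMT 5, −1.31 in Squamous 2 and −1.20 in EMT 3. Squamous 4 was among the highest 4 tumours for 7 of 7 genes, the Microacinar tumour also for 7, Squamous 8 for 6 and the Papillary tumour for 4. No EMT tumour was among the highest 4 for any of the 7 genes. The same counts were not made over all genes, so how unusual they are was not tested.

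**Figure D2:**
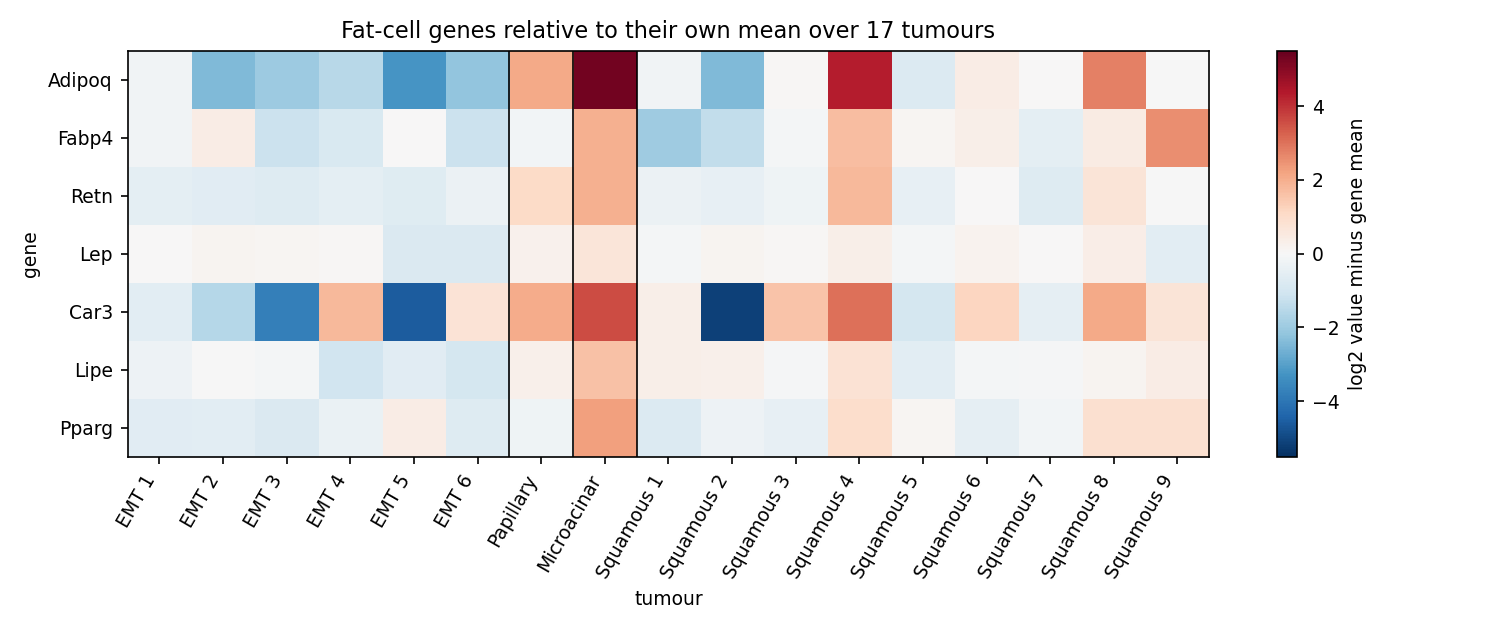
Colour shows the log2 value of each fat-cell gene (rows) in each tumour (columns) minus the gene's own mean over the 17 tumours; vertical lines part the EMT, Papillary, Microacinar and Squamous tumours. The Microacinar and Squamous 4 columns are red for every gene, and Car3 is high in EMT 4, where Adipoq is low.

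The Papillary and Microacinar tumours are single samples, so their differences from the Squamous mean have no test. In the Microacinar tumour 6 of 7 genes were more than 1 log2 unit above the Squamous mean, where 2.68% of all genes were. The differences were 4.83 for Adipoq, 3.31 for Car3, 2.17 for Pparg, 1.93 for Retn, 1.81 for Fabp4, 1.50 for Lipe and 0.62 for Lep. The Microacinar tumour was the highest of the 17 for 6 of 7 genes, and it was so for 6.05% of all genes. In the Papillary tumour 2 of 7 genes passed the same fold, Car3 with 1.78 and Adipoq with 1.60, against 2% of all genes, while Pparg (−0.29) and Fabp4 (−0.26) were below the Squamous mean. The Papillary tumour was above every Squamous tumour for 0 of 7 genes, against 8.26% of all genes. It was above every EMT tumour for 5 of 7 genes, against 15.1% of all genes. Squamous 4 was the highest Squamous tumour for 5 of 7 genes, and for 8.11% of all genes.

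EMT and Squamous are the 2 histologies with replicates, and their comparison asks whether fat-cell genes differ between them. All 7 genes had a lower estimate in EMT tumours, where 48.2% of all genes did, and 0 of 7 passed the test with limma over all genes at an adjusted p of 0.05. No gene passed at all (0 of 12393, 0%). At an unadjusted p under 0.05 there were 3 of 7, Lipe, Adipoq and Pparg, against 1778 genes or 14.3% of all. All 3 were lower in EMT tumours, as were 777 of all genes at that p (6.27%). The count of 3 of 7 depended on the tumours used. Among numbered arrays it was 0 of 7, where 1162 of all genes had such a p. Without EMT 2 or without EMT 3 it was 1 of 7. No gene of the 7 had all EMT tumours below all Squamous tumours, as 0.0968% of all genes did. The median log2 fold change of the 7 genes was −0.66, and that of all genes was 0.01.

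The Adipoq mean was 4.64 ± 1.03 (SD, n = 6) over EMT tumours and 7.04 ± 1.96 (SD, n = 9) over Squamous tumours, a log2 fold change of −2.20 (SE 0.87, limma adjusted p = 0.289). The Lipe mean was 7.02 ± 0.43 (SD, n = 6) over EMT tumours and 7.65 ± 0.39 (SD, n = 9) over Squamous tumours, and its log2 fold change was −0.60 (SE 0.22, limma adjusted p = 0.259). The Pparg mean was 5.18 ± 0.43 (SD, n = 6) and 5.71 ± 0.66 (SD, n = 9) in the same order, with a log2 fold change of −0.66 (SE 0.28, limma adjusted p = 0.320). None of these 3 differences passed after adjustment.

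For the other 4 genes the 95% interval of the log2 fold change included 0. It ran from −4.29 to 1.26 for Car3, around −1.51, with limma adjusted p = 0.612. It ran from −2.10 to 0.40 for Fabp4, around −0.85, with limma adjusted p = 0.522. Retn lay at −0.61, with an interval of −1.32 to 0.10 and limma adjusted p = 0.416. Lep lay at −0.06, with an interval of −0.24 to 0.12 and limma adjusted p = 0.787. Lep, near 0 throughout, was at −0.24 without the title term, −0.02 without Squamous 9, −0.03 without Squamous 8 and −0.04 without Squamous 4. Leaving out tumours also moved 2 other estimates by a large share. Fabp4 was at −0.28 without Squamous 9, and Car3 was at −0.86 without EMT 3 and −2.28 without EMT 4. Squamous 9 is the only Squamous tumour on a TM array. Without it the title term takes up the EMT tumours on TM arrays, so the estimates equal those among numbered arrays. The shifts of Fabp4 and Lep without Squamous 9 are therefore not those of a single tumour.

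**Figure D3:**
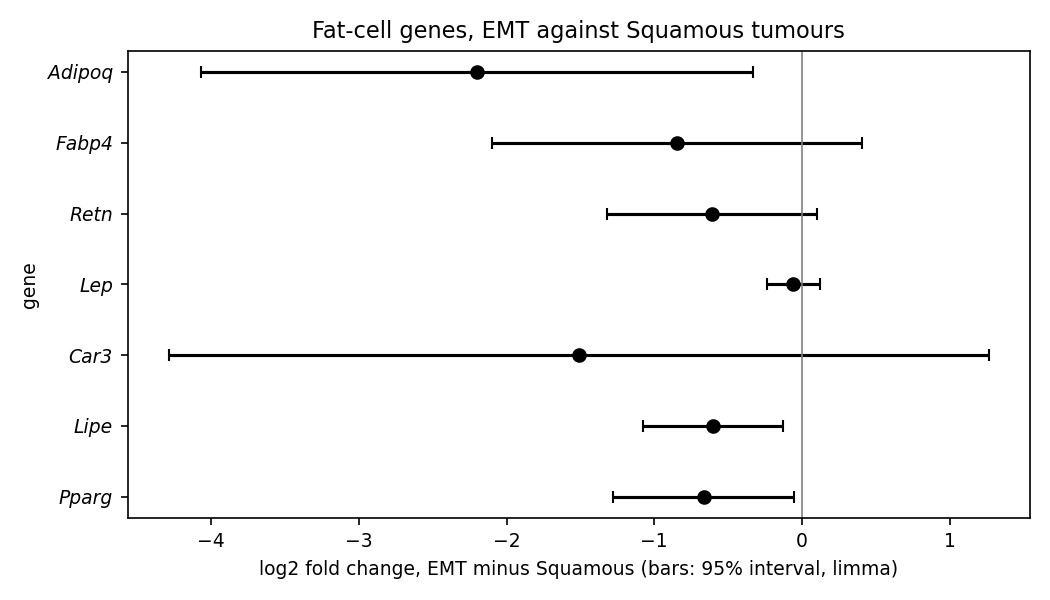
Log2 fold change, EMT minus Squamous (horizontal axis), of the 7 fat-cell genes, with points for the limma estimate and bars for its 95% interval, from 6 EMT and 9 Squamous tumours. All 7 points lie below 0, and the intervals of Adipoq, Lipe and Pparg exclude 0 before adjustment over all genes.

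Across all 17 tumours Adipoq was compared with each other gene by permutation of the tumours (100000 resamples, two-sided, 6 relations, Benjamini-Hochberg adjusted). Permutation treats the tumours as exchangeable, though they differ in histology and title format and some share a title number. A small p therefore cannot part a relation among like tumours from shifts between such groups. Retn had the highest Pearson's r, 0.92 (permutation p = 1e-05, the smallest they can give, adjusted p = 6e-05) and Spearman's rho = 0.76 (permutation p = 0.00058, adjusted p = 0.00174). Car3 had the highest rho and an r of 0.79 (permutation p = 0.00036, adjusted p = 0.00078) and rho = 0.84 (permutation p = 6e-05, adjusted p = 0.00036). Both relations held without the 2 tumours farthest from the Adipoq median, the Microacinar and Squamous 4, with r = 0.80 for Retn (permutation p = 0.00048) and r = 0.73 for Car3 (permutation p = 0.00183). Among the 14 numbered arrays r was 0.94 for Retn and 0.81 for Car3, within the 9 Squamous tumours 0.91 and 0.84, and within the 6 EMT tumours 0.14 and 0.51.

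For the other 4 genes both measures passed over the 17 tumours, and r no longer did without those 2 tumours. For Lipe r was 0.76 and rho 0.57 (permutation p = 0.00039 and 0.02, adjusted p = 0.00078 and 0.03), and r was 0.47 without the 2 tumours (permutation p = 0.0741). For Pparg r was 0.71 and rho 0.51 (permutation p = 0.00213 and 0.0395, adjusted p = 0.0032 and 0.0395), and r was 0.34 without them (permutation p = 0.211). For Lep r was 0.64 and rho 0.62 (permutation p = 0.00695 and 0.00925, adjusted p = 0.00834 and 0.0185), and r was 0.49 without them (permutation p = 0.0607). For Fabp4 r was 0.59 and rho 0.51 (permutation p = 0.0124 and 0.0378, adjusted p = 0.0124 and 0.0395), and r was 0.30 without them (permutation p = 0.279). Among numbered arrays the r of Lipe, Pparg, Lep and Fabp4 was 0.73, 0.84, 0.72 and 0.75. Within the 9 Squamous tumours it was 0.48, 0.64, 0.44 and 0.53, and within the 6 EMT tumours 0.07, −0.54, 0.53 and −0.16, with the sign turned for Pparg and Fabp4.

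Among all other genes, those most like the mean of the 7 genes over the 17 tumours were ranked by Pearson's r, as a description. First came Plin4 (r = 0.90) and Cidec (0.88), which encode proteins of the lipid droplet, then the flavin monooxygenase Fmo1 (0.87), the carboxylesterase Ces1d (0.84), Dgat2 (0.82), which makes triglyceride, the acetyl-CoA carboxylase Acacb (0.81), Art3 (0.81) and the cytochrome P450 Cyp2e1 (0.81). Over the 14 numbered arrays these r lay between 0.80 and 0.95. The genes most like Adipoq alone were Retn, Ces1d (0.89), Cidec (0.86), Acacb (0.86) and Cyp2e1 (0.84). Genes on the same arrays share each tumour's piece of tissue, and these genes were picked for their r.

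Values by tumour are given for Cidec and Plin4, the first genes by this r, and for Pck1, chosen after its values were seen. The log2 value of Cidec was 8.29 in the Microacinar tumour and 7.33 in Squamous 4, and between 3.99 and 5.15 in the other 15. Plin4 was 8.38 in the Microacinar tumour and 7.60 in Squamous 4, and 5.46 to 6.89 in the others. Pck1, an enzyme that supplies glycerol for fat storage, was 8.92 in the Microacinar tumour, 7.73 in Squamous 4 and 3.02 to 4.36 in the others. Papillary and Squamous 8, with Adipoq at 8.64 and 9.34, had 4.35 and 4.36 for Pck1, the highest values after those of the Microacinar tumour and Squamous 4.

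Of 6 measured genes of brown fat, the fat that makes heat, 3 (Ucp1, Cox8b and Cox7a1) were highest in the Microacinar tumour and next in Squamous 4, and the other 3 were not. Ucp1, the uncoupling protein that defines brown fat cells, was 11.86 in the Microacinar tumour and 9.69 in Squamous 4. In the other 15 tumours Ucp1 was between 4.22 and 4.92, with 4.92 in the Papillary tumour and 4.71 in Squamous 8. Cox8b and Cox7a1, respiratory chain subunits of brown fat and also of muscle, were 11.31 and 9.72 in the Microacinar tumour, 8.94 and 7.39 in Squamous 4, and at most 8.30 and 7.10 elsewhere, both in EMT 4. Dio2, which activates thyroid hormone, was 6.91 in the Microacinar tumour and 7.65 in Squamous 4, both below its Squamous mean of 7.83, and was highest in Squamous 9 at 9.32. The nuclear receptor Ppara was highest in Squamous 7 at 10.22, with 8.12 in the Microacinar tumour and 6.93 in Squamous 4. The transcription factor Zic1 was highest in Squamous 4, at 5.07, and next in the Microacinar tumour, at 4.75. Both values lay below the lower quartile of every array (5.24 or more), at the low end of what these arrays report. Of the 6 measured brown fat genes 0 passed between EMT and Squamous tumours. Their median log2 fold change was −0.32, with Dio2 at −0.93 (limma adjusted p = 0.354), Ppara at −0.53 (limma adjusted p = 0.700) and Ucp1 at −0.50 (limma adjusted p = 0.774).

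**Figure D4:**
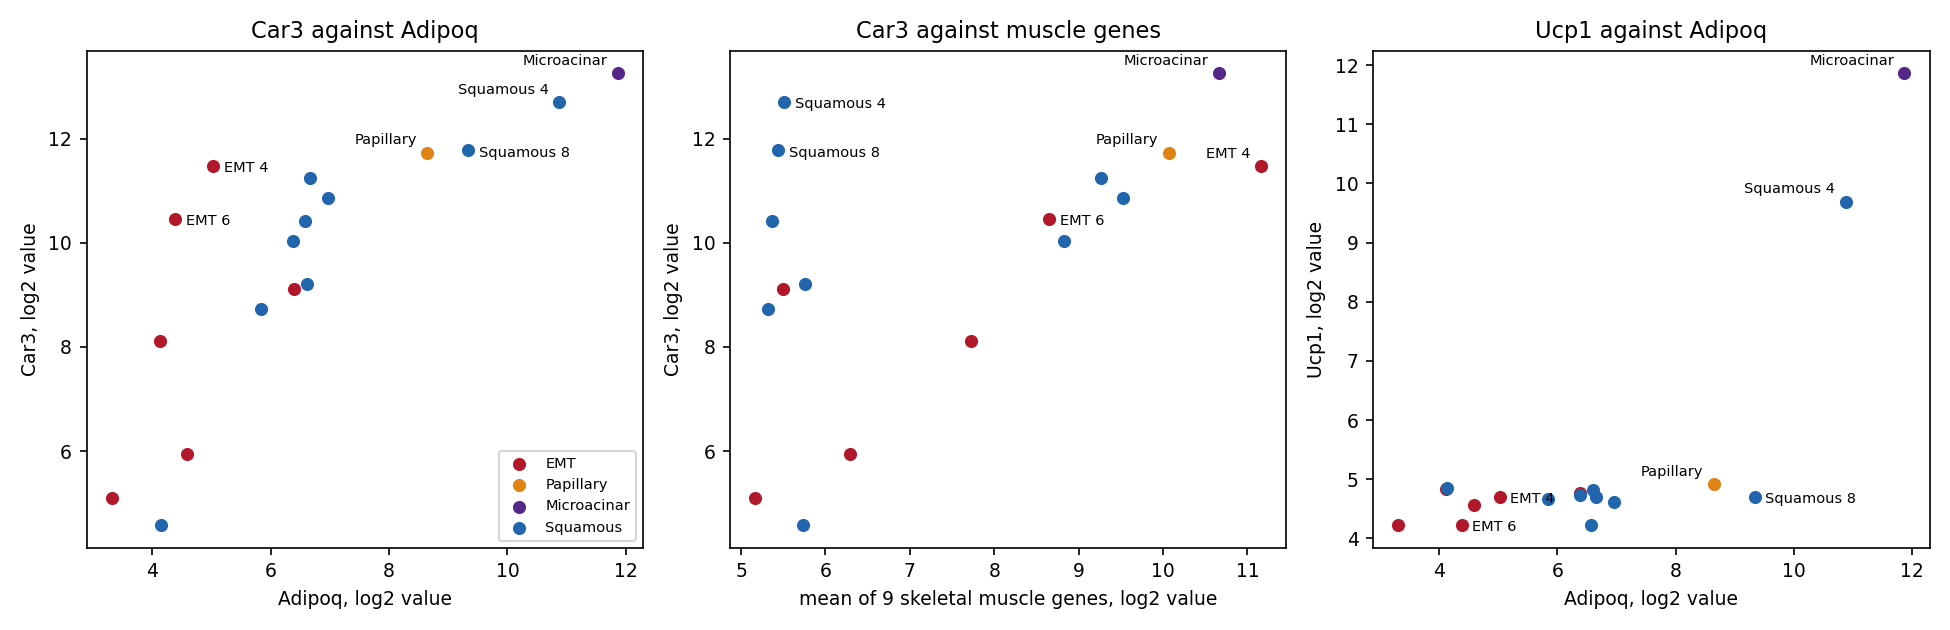
Each point is 1 of the 17 tumours, coloured by histology, with log2 values on both axes: Car3 against Adipoq (left), Car3 against the mean of 9 skeletal muscle genes (middle) and Ucp1 against Adipoq (right). EMT 4 and EMT 6 have high Car3 at low Adipoq, and Ucp1 is 11.86 in the Microacinar tumour and 9.69 in Squamous 4 but at most 4.92 in the others.

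The other genes of the fat cell were described by lists. Of 18 further white fat genes 15 were measured and 0 passed in either direction between EMT and Squamous tumours. Their median log2 fold change was −0.10, and 12 of 15 were below 0. The members with the smallest p were Lgals12, a galectin of fat cells, at −1.54 (SE 0.34, limma adjusted p = 0.133), Gpd1, which makes glycerol phosphate, at −1.16 (limma adjusted p = 0.306) and Plin4 at −0.51 (limma adjusted p = 0.436). Without EMT 1 Lgals12 passed, at −1.86 (limma adjusted p = 0.0340). The Microacinar tumour was highest for 10 of the 15 genes, and for 6.05% of all genes.

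Of 11 partners of Lipe in lipolysis 6 were measured, 0 passed and 6 were below 0, with a median log2 fold change of −0.85. G0s2, an inhibitor of the first lipase of the pathway, was at −1.76 (limma adjusted p = 0.214), Abhd5, the activator of that lipase, at −1.14 (limma adjusted p = 0.238) and Pnpla2, the lipase itself, at −0.82 (limma adjusted p = 0.252). Of 19 lipid synthesis and uptake genes, many of them also used by milk-secreting epithelium, 19 were measured, 0 passed and 18 were below 0, with a median of −0.84. Cd36, a fatty acid carrier, was at −2.65 and Lpl, the lipase of circulating fat, at −2.60 (limma adjusted p = 0.123 for both), and the lipid droplet protein Cidea was at −1.72 (limma adjusted p = 0.193). Without EMT 1 Cd36 passed, at −2.97 (limma adjusted p = 0.0465). Of 7 milk protein genes 7 were below 0, with a median of −2.53, and their mean was 5.97 to 12.41 in EMT tumours, 14.04 in the Papillary, 14.11 in the Microacinar and 10.92 to 13.81 in Squamous tumours. In Squamous 4, with the second highest fat-cell mean, it was 11.21. The Microacinar tumour was highest for 9 of the 19 lipid synthesis and uptake genes and 5 of the 7 milk protein genes. It was so for 6.05% of all genes. The part of secretory epithelium in the lipid gene values was not tested.

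Of 19 regulators of fat cell formation 18 were measured, 0 passed and 15 were below 0, with a median log2 fold change of −0.44. Rxra, the partner of PPAR gamma, was at −0.37 (limma adjusted p = 0.207), the transcription factor Gata3, which restrains fat cell formation and is also a luminal epithelial factor, at −1.41 (limma adjusted p = 0.238), and Dlk1, a marker of preadipocytes, at 0.20 (limma adjusted p = 0.204). The Microacinar tumour was the highest for 1 of these 18 genes, near the 6.05% of all genes: Ppargc1a, a coactivator of PPAR gamma, at 6.01. Of 5 adipokine receptor and response genes 0 passed, with a median of 0.09 and the adiponectin receptor Cdh13 at 0.41, the leptin receptor Lepr at 0.17 and the leptin response gene Socs3 at −0.24. Of 7 genes of the alternative complement pathway, in which the product of Cfd acts, 5 were measured and 0 passed, with a median of −0.22, Cd55 at −1.23, properdin (Cfp) at 0.75 and Cr1l at 0.18.

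Markers of the other cell types showed no member past the threshold either. The median log2 fold change was −1.49 for 6 epithelial genes, −0.34 for 4 sebaceous gland genes of 7 listed, 0.72 for 9 muscle, 0.62 for 8 fibroblast, 0.43 for 8 macrophage, 0.16 for 5 fat progenitor (of 6 listed) and 0.09 for 8 endothelial genes. Fat progenitor genes did not peak where the mature fat-cell genes did: their mean was 8.08 in the Papillary and 8.68 in the Microacinar tumour and 9.14 in Squamous 4, all within the 7.27 to 9.71 of Squamous tumours, with EMT tumours at 8.10 to 9.59. The progenitor markers with the smallest p did not go one way: Dpp4 was at −0.79 (limma adjusted p = 0.316), Pi16 at −1.22 (limma adjusted p = 0.344) and Pdgfra, a receptor of fat progenitors and fibroblasts, at 0.77 (limma adjusted p = 0.574). Pdgfra was 8.79 in the Microacinar tumour, with 10.41 ± 1.56 (SD, n = 6) over EMT tumours and 9.14 ± 1.38 (SD, n = 9) over Squamous tumours. Of the other lists, the genes with the smallest p were the endothelial Vwf at −0.97, Tek at −0.46 and Tie1 at 0.25, the macrophage Cd163 at 0.81, Mrc1 at 0.77 and C1qc at 0.47, and the muscle Myh1 at 2.02, Acta1 at 1.45 and Mylpf at 1.05. They were also the fibroblast Fbln2 at 1.05 and Fn1 at 0.78, the epithelial Cdh1 at −1.42, Epcam at −1.61 and Krt14 at −1.57, the sebaceous Krt79 at −2.62, Scd3 at −0.47 and Elovl3 at −0.21, and the milk genes Wap at −3.12, Btn1a1 at −3.07 and Csn3 at −2.58. The lowest limma adjusted p among these was 0.128, for Wap, and that of Vwf was 0.142. The sebaceous marker Krt79 was 7.52 in the Microacinar tumour, below the lowest Squamous tumour at 8.99. The other measured sebaceous genes were not low there. Elovl3 (8.65), Scd3 (6.71) and Mc5r (5.51) were above their Squamous means of 5.46, 5.92 and 5.35. Only Elovl3 was above the highest Squamous tumour, at 6.51. For Scd3 and Mc5r the highest Squamous values were 7.57 and 5.67.

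**Figure D5:**
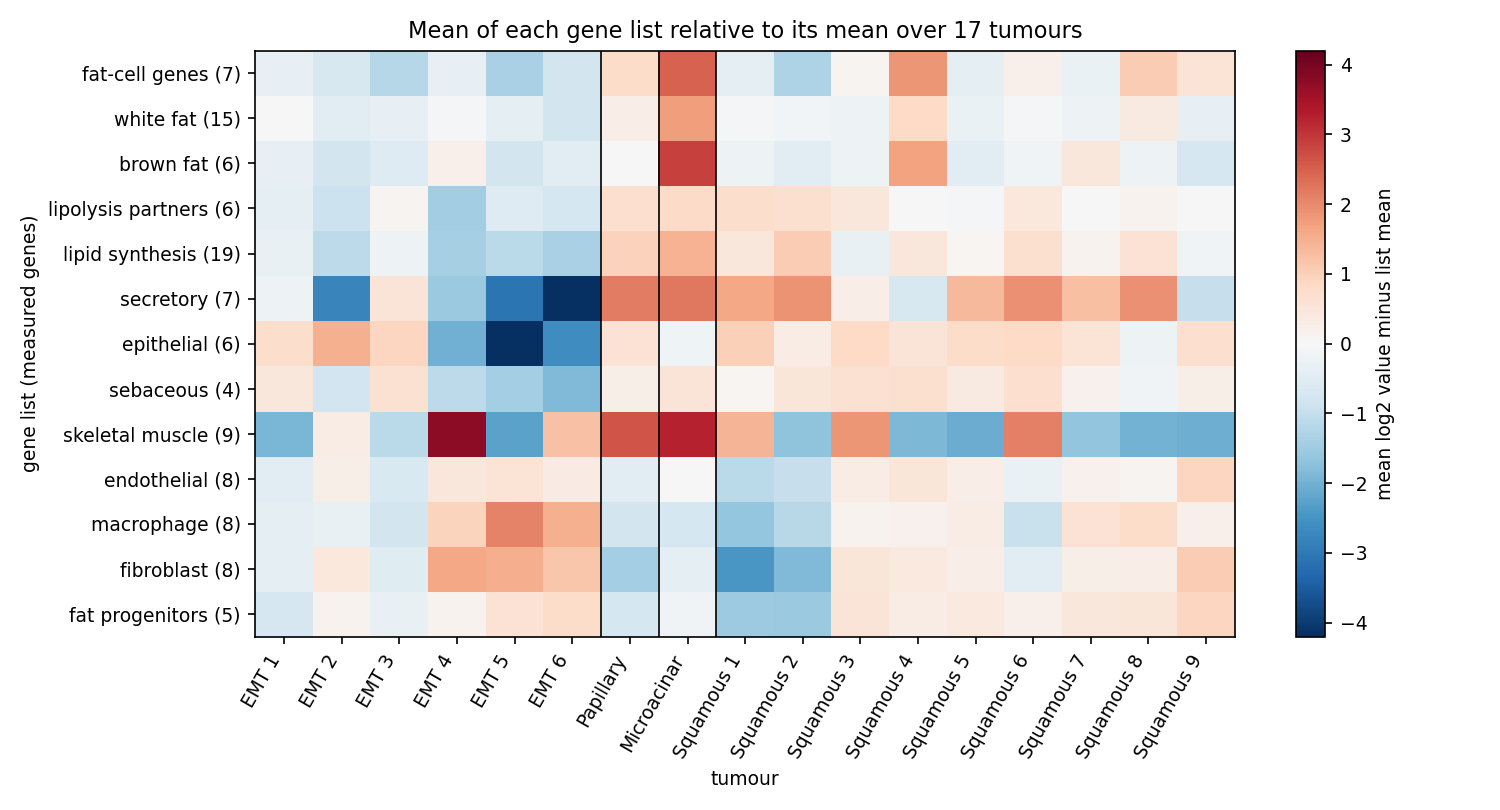
Colour shows the mean log2 value of each gene list (rows, measured genes in brackets) in each tumour (columns) minus the list's mean over the 17 tumours; vertical lines part the EMT, Papillary, Microacinar and Squamous tumours. Fat-cell, white fat and brown fat rows are all highest in the Microacinar tumour and next in Squamous 4, while the muscle row is highest in EMT 4.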

How the data were processed

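RNA of 17 tumours was measured, 1 Affymetrix array each, with total RNA extracted by column kit and labelled with biotin, per the labels' protocols. Log2 values of 22690 probe sets were deposited, none missing. The scale was read from the values, and how the authors normalised them is not given in the sources used here, so no further normalization was applied. No detection calls were used. On all 3 TM arrays 2989 probe sets shared one equal value, none of them a probe set of the 7 genes. A supplied probe table paired 20380 probe sets with 1 symbol, 691 with several and 1555 with none, besides 64 controls, and 20351 were matched by gene identifier to RefSeq. This left 12393 genes, each read by its brightest probe set on average over the arrays.

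The EMT against Squamous test was limma (version 3.58.1, R 4.3.3) with an additive term for title format and Benjamini-Hochberg adjustment over all genes. Whether each tumour is from its own animal is not given in the labels, so p-values measure only the spread between these samples, which may be technical. Values for groups of 1 tumour carry no test. Other tools were Python 3.11.15, matplotlib 3.10.9, scipy 1.17.1, pandas 2.3.3 and numpy 2.4.6, and the model was tested on simulated data. The members, the 15 other gene lists and the rules were chosen with earlier results of these data known. By rule the text names the members, up to 3 genes per list with the smallest p, the 8 genes most and the 4 least like the member mean, the 5 most like Adipoq and Krt8, Krt18, Epcam and Myc. Cox8b, Cox7a1, Zic1, Pck1, Ppargc1a, Sncg, Mc5r and the tumours singled out were chosen after their values were seen. The alternatives were no title format term, numbered arrays only, quantile normalization, array weights, subtracted array medians, every probe set as a feature, probe sets averaged per gene, a robust trended fit, only genes above the median level, 4 groups over all tumours, averaging Squamous 7 and Squamous 8, which share a title number, and leaving out each tumour.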

Additional observations from a re-analysis of the deposited data

Results flagged for a closer look

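In 14 groups (7 genes, in EMT and in Squamous tumours) 2 single tumours stood apart from the rest of their group by Dixon's criterion, and chance gives about 1 in 20 groups. Car3 in Squamous 2 was 4.57, far below the other 8 Squamous tumours at 8.72 to 12.71. Pparg in EMT 5, a TM array, was 6.02, above the other 5 EMT tumours at 4.85 to 5.26. Without Squamous 2 the Car3 fold change was −2.12, and without EMT 5 that of Pparg was −0.73.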

How the results depend on the processing

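Across 26 alternative fits 0 genes passed in 25, and without EMT 1 14 genes passed, none of them one of the 7 fat-cell genes; leaving out each tumour thus gave 0 to 14. The unadjusted count of genes was 1056 with array weights and 2259 without EMT 1, against 1778. In every alternative 0 of the measured fat-cell genes passed. The sign was kept by 174 of 174 estimates, the other probe sets of Fabp4 and Car3 included. Part of these 174 are not separate checks, because they repeat other estimates. The robust trended fit, the fit in 4 groups and that of genes above the median level left the main estimates unchanged. Averaging probe sets changed only those of Fabp4 and Car3. Without the Squamous tumour on a TM array the estimates were those among numbered arrays. The ranges of the log2 fold change were −2.57 to −1.78 for Adipoq, −0.70 to −0.41 for Retn, −0.24 to −0.02 for Lep, −1.20 to −0.28 for Fabp4, −2.28 to −0.86 for Car3, −0.72 to −0.42 for Lipe and −0.75 to −0.53 for Pparg, with a lowest adjusted p of 0.166 (limma). The median of the 7 genes lay between −1.18, from the 2 genes left above the median level, and −0.56. No paired analysis was possible because replicate numbers only name tumours in accession order. The fit of all tumours in 4 groups gives the same estimates by construction, since single tumours add nothing to the spread.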

Other observations

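Tumours that share a title number differed in their fat-cell genes; the labels do not say what the number stands for. The Microacinar tumour and Squamous 5 share a title number, with Adipoq at 11.87 and 5.84, Car3 at 13.26 and 8.72 and Pparg at 7.89 and 5.74. Squamous 8 and Squamous 7 share another, with Adipoq at 9.34 and 6.60, Retn at 7.51 and 6.06 and Car3 at 11.78 and 9.21.

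The genes least like the mean of the fat-cell genes over the 17 tumours, chosen for that, were Spin4 (Pearson's r = −0.81), the cytokine Mif (−0.80), Zfpl1 (−0.78) and Asb7 (−0.78). Mif was 12.70 ± 0.38 (SD, n = 6) over EMT tumours, 12.15 in the Papillary, 11.83 in the Microacinar, 12.18 ± 0.30 (SD, n = 9) over Squamous tumours and 11.74 in Squamous 4. Elovl3, a fatty acid elongase of sebaceous gland and brown fat, was 8.65 in the Microacinar tumour, above the EMT range of 4.22 to 5.77 and the Squamous range of 4.65 to 6.51.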
